A study of Mus musculus with 16 samples.

Results

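The regions described here were open chromatin peaks of CD4-CD8- double negative (DN) thymocytes that were wide and met no peak of any later stage. They were chosen by rule as the peaks of the DN list that shared no base with a peak of the CD4+CD8+ double positive (DP), CD4 single positive (SP4) or CD8 single positive (SP8) list and were at least 300 bp wide. The rule found 4643 regions among the 150139 DN peaks, or 3.09% of them, and among the 52171 DN peaks of that width it found 8.90%. They are called broad DN-only regions, where broad refers to the width alone and DN-only to the absence of a called peak at the other stages.

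The study profiled 16 libraries by ATAC-seq, a method that tags accessible DNA with a transposase, from 4 wild type C57BL/6J mice of 9 weeks, 1 library per mouse and stage. DN cells were sorted as lineage-negative and CD4-CD8-CD3-, DP cells as lineage-negative CD4+CD8+, and SP4 and SP8 cells as lineage-negative, CD3+ and positive for CD4 or CD8 alone. The lineage cocktail included antibodies to TER119, B220, Mac1, Gr1, CD11c, NK1.1 and the gamma delta T cell receptor. The mice of a stage were pooled before peaks were called, so that each stage has 1 list and no value below has a replicate error.

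DN thymocytes include the progenitors that enter the thymus, which lose the potential for other blood lineages under Notch signalling, and the cells that rearrange the T cell receptor beta gene and then pass to the DP stage. Factors of the RUNX family and the E proteins, which bind E-box sequences, act throughout this course, and PU.1 and other progenitor factors are shut off during it. An accessible region can be a promoter or a distal element, and closed regions of a later stage can mark genes that are no longer in use. In a sorted population, fewer cells with an open region and less opening per cell cannot be told apart.

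The summit is the base of a peak with the most reads, and the window from 50 bp before it to 50 bp after it served for all sequence counts. The windows below were taken from the mm10 genome sequence (RefSeq), plus strand, 5′ to 3′, and capitals mark every match to 1 of the 26 motifs that were searched. The region highest by q-value (near Ifi44, chr3:151729922-151730022), an intron of Mitf (chr6:97996012-97996112) and the region near Psmc3 and upstream of Spi1 (chr2:91049938-91050038) are shown because they led the list by rank. Windows in or near Runx1 (chr16:92782576-92782676), Flt3 (chr5:147409996-147410096), Ebf1 (chr11:44920287-44920387), Cdh5 (chr8:104138159-104138259) and Bpifb3 (chr2:153924696-153924796) are shown because they held both a RUNX match (TGTGGT) and an E-box, either the palindromic form (CAGCTG) or the asymmetric form (CAGGTG), read on either strand. The windows at the start sites of Hes1 (chr16:30065125-30065225) and Tlr4 (chr4:66827672-66827772) show promoter members without and with matches.
Ifi44: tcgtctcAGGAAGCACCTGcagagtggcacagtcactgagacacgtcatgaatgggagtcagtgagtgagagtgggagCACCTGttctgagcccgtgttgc
Mitf: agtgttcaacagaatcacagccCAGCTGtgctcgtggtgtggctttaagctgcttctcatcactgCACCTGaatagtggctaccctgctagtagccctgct
Psmc3: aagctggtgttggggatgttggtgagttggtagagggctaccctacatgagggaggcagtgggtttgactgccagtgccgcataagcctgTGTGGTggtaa
Runx1: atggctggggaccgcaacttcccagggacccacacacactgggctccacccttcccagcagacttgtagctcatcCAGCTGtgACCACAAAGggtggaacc
Flt3: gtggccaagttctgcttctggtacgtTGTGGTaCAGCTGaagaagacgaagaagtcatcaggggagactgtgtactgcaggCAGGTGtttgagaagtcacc
Ebf1: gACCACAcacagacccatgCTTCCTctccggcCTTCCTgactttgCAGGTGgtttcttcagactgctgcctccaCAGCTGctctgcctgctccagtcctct
Cdh5: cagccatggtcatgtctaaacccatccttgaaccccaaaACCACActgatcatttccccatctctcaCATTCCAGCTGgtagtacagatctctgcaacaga
Bpifb3: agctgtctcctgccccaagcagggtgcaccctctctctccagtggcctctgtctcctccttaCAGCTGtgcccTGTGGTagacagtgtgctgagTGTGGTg
Hes1: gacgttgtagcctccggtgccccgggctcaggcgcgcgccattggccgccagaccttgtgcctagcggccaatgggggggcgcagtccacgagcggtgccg
Tlr4: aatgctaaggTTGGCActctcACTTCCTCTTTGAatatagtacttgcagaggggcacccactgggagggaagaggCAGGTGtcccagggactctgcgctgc

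The rule took more regions from the DN list than from any other list. Applied to the other stages, the same rule found 299 broad DP-only regions (0.279% of the DP peaks), 580 broad SP4-only regions (0.504%) and 271 broad SP8-only regions (0.260%). The DN list was also the longest, and when the lists were brought to equal length by q-value, the rule found 4430 broad DN-only regions against 529, 696 and 468 in the other stages. Most DN-only peaks were narrow, since 35750 DN-only peaks were under 300 bp, and most broad DN peaks were shared, since 38659 of them overlapped a peak at each of the 3 later stages. These narrow DN-only and broad DN shared peaks served as the comparison sets within the DN list.

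Broad DN-only regions were moderately wide and of more than average height. Their width ran from 300 to 1244 bp with a median of 376 bp (quartiles 331 and 450 bp), below the median of 494 bp of the broad DN shared peaks. The fold enrichment at the summit, which is the read pile-up over the local background as the authors' peak caller gave it, ran from 2.03 to 37.4 with a median of 7.54. By fold enrichment their median percentile among all DN peaks was 64.3, between 26.0 for narrow DN-only and 82.5 for broad DN shared peaks. Of the regions, 432 (9.30%) stood among the top 10% of the DN list by fold enrichment. Width enters the rule and height goes with width, so these values only describe the regions.

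The DN-only label rested on the peak threshold at the later stages. The nearest DP, SP4 or SP8 peak lay a median of 5621 bp away, at 4 bp in the closest case and beyond 10 kb for 1654 regions (35.6%), while 472 regions (10.2%) had one within 500 bp. Just inside the width limit, 208 regions of 300 to 304 bp had a median fold enrichment of 6.24, and just outside it, 228 DN-only peaks of 295 to 299 bp had 5.93. At the limit of overlap, 2 regions lay within 10 bp of a later peak, with a median fold enrichment of 4.95, and 6 broad DN peaks were left out for an overlap of 1 to 10 bp, with 4.88.

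The regions with the highest −log10 q-value lay at genes of varied roles. The first was the interval of 565 bp at chr3:151729780-151730344, 950 bp from Ifi44, an interferon-induced gene, with a −log10 q-value of 637 and a fold enrichment of 37.1. The second, at chr12:13180834-13181295, lay at a promoter 188 bp from the nearest transcription start site (TSS) and 35985 bp from Ddx1, which encodes an RNA helicase. The third stood between genes on chromosome 18, 326744 bp from Tshz1, a zinc finger gene. The fourth was in an intron of Kif13b, a kinesin gene, and the fifth in an intron of Mitf, the master factor of melanocytes and a factor of mast cells, with a fold enrichment of 35.0. The sixth was 6737 bp from Pappa2, a protease gene, the eighth 2028 bp from the defensin gene Defb28 and the ninth in an intron of Banp. The tenth, chr2:91049811-91050177, lay in an intron 4021 bp from Psmc3, a proteasome subunit gene, and 32402 bp upstream of Spi1, which encodes PU.1, at a fold enrichment of 18.9. The last of the leading 12 were 17145 bp from Wdr48, at a fold enrichment of 33.6, and in an exon of Bpifb3, at 23.8. Of these 12 regions, 1 lay at a promoter, 5 in introns, 1 in an exon and 5 between genes.

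The widest regions were not the highest. The widest, 1244 bp in an exon of Gdf6, a bone morphogenetic protein gene, had a fold enrichment of 7.79. Those at the promoter of Slc35f1 (1231 bp) and 3034 bp from the gap junction gene Gja5 (1173 bp) had 10.0 and 11.3. The region in an exon of the Wnt receptor gene Fzd1 (1166 bp) had 12.5, and that in the progesterone receptor gene Pgr (1134 bp) had 6.16. The regions at Slc35f1, Fzd1 and Pgr lay 266788, 153784 and 200031 bp from the nearest peak of a later stage.

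Broad DN-only regions lay at promoters less often than all DN peaks did. By position, 496 regions (10.7%, 95% Wilson interval 9.83 to 11.6%) touched a promoter, taken as the 200 bp upstream of a TSS. Another 706 (15.2%) touched an exon without a promoter, 2123 (45.7%) an intron and 1318 (28.4%) none of these. Among all DN peaks the shares were, in this order, 14.7%, 14.3%, 44.9% and 26.0%. Promoters made up 34.5% of the broad DN shared peaks, and the difference, broad DN-only minus shared, was −23.8 points (95% interval −24.8 to −22.8). They made up 5.20% of the narrow DN-only peaks, a difference of 5.49 points (4.60 to 6.43), and a wider interval touches a promoter more easily. Against the broad regions of the later stages, the share at promoters was higher by 4.33 points (0.864 to 6.76) than among DP-only regions, by 7.75 points (5.84 to 9.18) than among those of SP4 and by 7.36 points (4.37 to 9.18) than among those of SP8. By the summit alone, which leaves width out and was compared after the data were seen, 4.80% of the broad DN-only regions lay at a promoter, against 21.9% of the broad DN shared and 3.20% of the narrow DN-only peaks (difference 1.60 points, 0.992 to 2.28). By the summit the difference from DP-only regions was 2.13 points with an interval from −0.453 to 3.59, which holds 0. With protein-coding TSSs alone, 7.56% of the broad DN-only regions touched a promoter. The intervals of shares and of differences cover counting error only, because regions are not replicates.

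The distance to the nearest TSS was taken from the summit, so that width did not enter it. Its median was 6461 bp over the broad DN-only regions (95% interval 6197 to 6826), beside 4500 bp over all DN peaks. Within 1 kb of a TSS lay 951 regions (20.5%), beside 27.8% of all DN peaks. Another 1902 (41.0%) lay between 1 and 10 kb, 1732 (37.3%) between 10 and 100 kb and 58 (1.25%) beyond. The broad DN shared peaks were much nearer, with a median of 1996 bp and 43.4% within 1 kb (Kolmogorov-Smirnov statistic 0.233, p = 1.33e-197 with Bonferroni correction over 5 pairs, n = 4643 and n = 38659 regions, nearer on 19 of 19 chromosomes). The test takes regions as independent, which neighbouring regions are not. The broad regions of the later stages were farther in the lists as deposited. DP-only regions had a median of 9167 bp (statistic 0.120, corrected p = 0.0028, n = 299), SP4-only regions 8446.5 bp (0.137, corrected p = 3.58e-08, n = 580) and SP8-only regions 7997 bp (0.121, corrected p = 0.00488, n = 271). The broad DN-only median was the smaller on 15, 15 and 12 of 19 chromosomes in these comparisons. With lists of equal length the test against DP-only regions missed the threshold (statistic 0.0387, corrected p = 1, n = 529 DP-only regions), with medians of 6697.5 bp for broad DN-only and 7041 bp for DP-only regions. At a minimum width of 400 bp the tests against DP-only (medians 6382 and 9410 bp) and SP8-only regions (6382 and 7288 bp) also missed it. With protein-coding TSSs alone the medians against SP8-only regions changed order, at 19131 and 18272 bp.

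**Figure D1:**
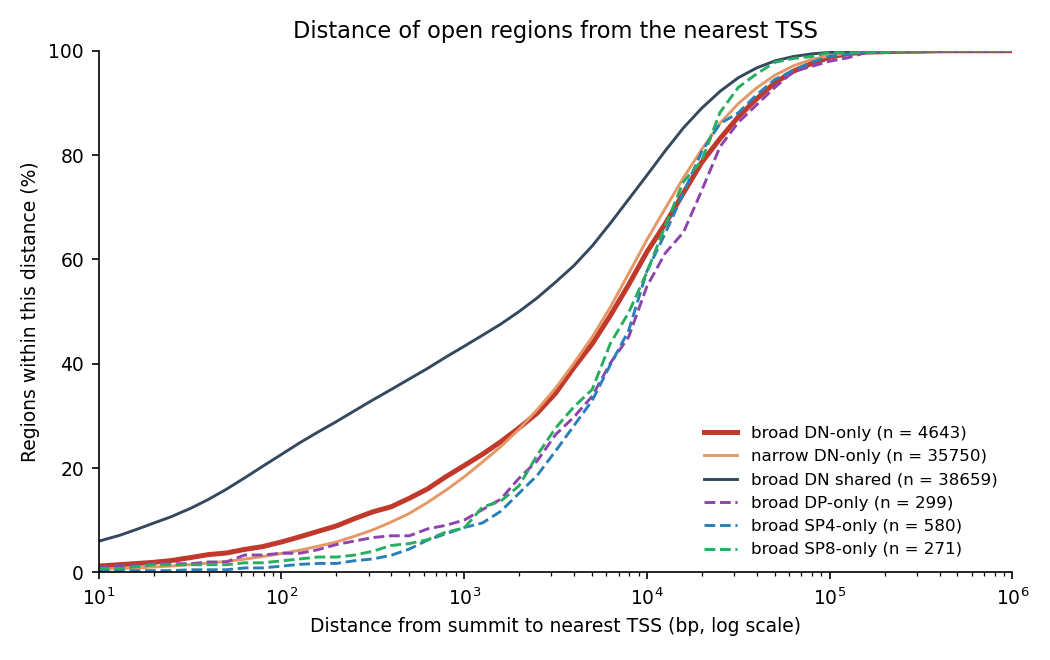
Cumulative share of regions (vertical axis, %) by distance from the summit to the nearest TSS (horizontal axis, bp, log scale) for the broad DN-only regions and the 5 comparison sets, with the number of regions in the legend. Within 1 kb lie 20.5% of the broad DN-only regions, 43.4% of the broad DN shared peaks and between 8.49% and 10.0% of the broad regions of the later stages.

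Narrow DN-only peaks had a median distance of 6098 bp, close to that of the broad ones, and the direction depended on height. Over all regions the median of the broad ones was the larger, as it was on 10 of 19 chromosomes. The distributions differed (Kolmogorov-Smirnov statistic 0.0356, corrected p = 0.000296, n = 4643 and n = 35750), but this test gives no direction and the curves crossed. Within 1 kb lay 20.5% of the broad and 18.3% of the narrow ones, and within 10 kb 61.4% and 63.8%. When both sets were split at the quartiles of the fold enrichment of the broad regions, these were nearer in each of the 4 ranges, with medians of 4195 against 5648 bp in the lowest range, 5687 against 8214 bp in the second, 7032.5 against 8544 bp in the third and 9596 against 10641 bp in the highest. The first 3 of these passed the test (p = 2.6e-09, 2.83e-08 and 0.0125 with Bonferroni correction over 8 tests, n = 1161, n = 1129 and n = 1192 broad regions) and the highest range did not (p = 1, n = 1161). Higher regions of both sets lay farther from a TSS. The broad DN shared peaks were nearer than the broad DN-only regions in every range, with medians from 662 to 3016.5 bp.

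A smaller group held the start site of a protein-coding gene. There were 311 such regions (6.70%) over the start sites of 305 genes, and 247 of these genes had no shared DN peak over another of their start sites. Of the leading 10 by q-value, 9 were at Gpha2, a glycoprotein hormone gene (fold enrichment 20.3), Atp2b2, a calcium pump gene (23.7), Hes1, a target of Notch (9.14), Arhgef10 (14.1), Garem1 on chromosome 18 (17.7), Rasgrp3, a Ras activator (20.5), Tlr4, the lipopolysaccharide receptor (20.4), the neuronal RNA-binding gene Elavl2 (15.5) and Kank1 (19.1). The nearest later peak was 551 bp from the Hes1 region and 1102783 bp from the Tlr4 region, which were the closest and the most distant of the 10. The start sites of Lyz2, a lysozyme gene of myeloid cells, and of Fbn1, an extracellular matrix gene, were also held by members.

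RUNX and E-box sequences were more frequent at the summits than in other DN peaks. A RUNX match (TGTGGT on either strand) was present in 1276 of the 4643 windows (27.5%, 95% interval 26.2 to 28.8%), against 17.0% of all DN windows, 15.3% of broad DN shared and 20.8% of narrow DN-only windows. The palindromic E-box CAGCTG was present in 19.3% of them against 13.4% of all DN windows, and the asymmetric E-box CAGGTG in 23.8% against 16.2%. The differences from the broad DN shared windows were 12.2 points for RUNX (10.9 to 13.5), 6.00 points for CAGCTG (4.84 to 7.21) and 8.55 points for CAGGTG (7.29 to 9.85), each in the same direction on 19 of 19 chromosomes. A match describes the letters and not a bound factor.

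**Figure D2:**
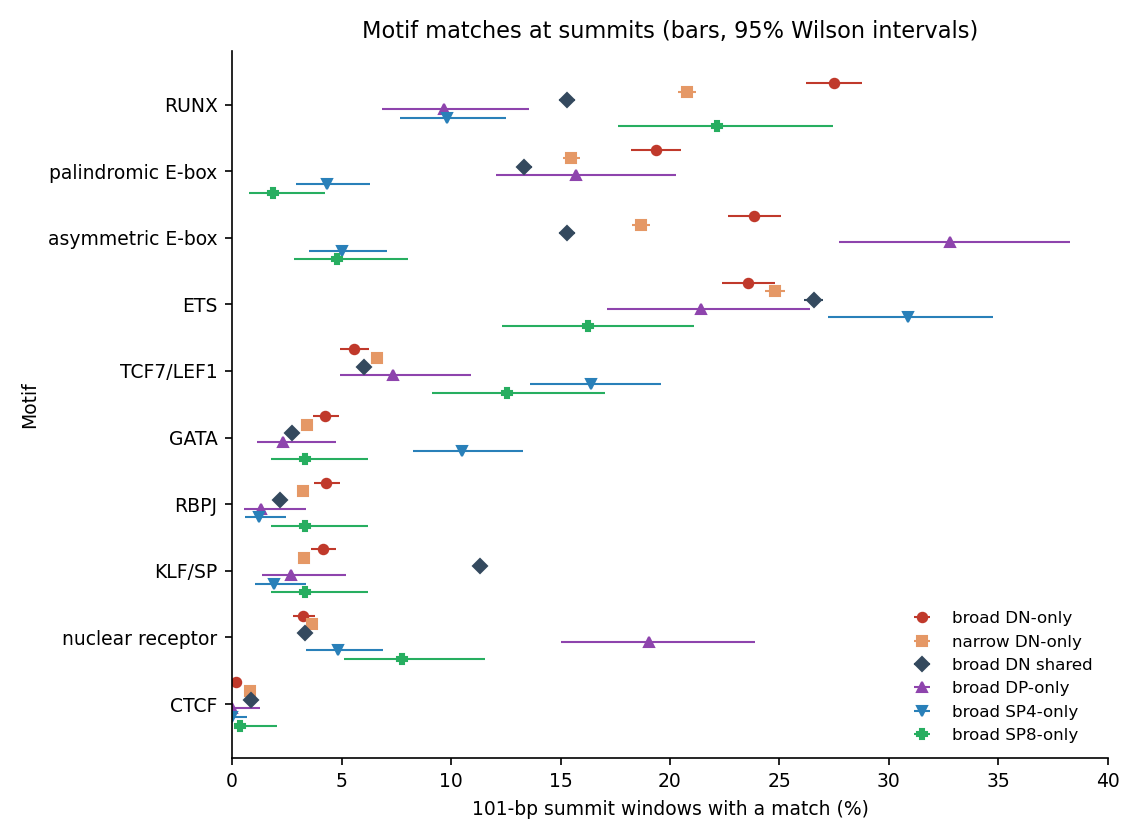
Share of summit windows with a match (horizontal axis, %) for 10 of the 26 motifs (vertical axis) in the broad DN-only regions and the 5 comparison sets, with points for the share and bars for 95% Wilson intervals (counting error only). RUNX matches are in 27.5% of the broad DN-only windows, in 9.70% of those open at DP alone, in 9.83% for SP4 and in 22.1% for SP8.

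The matches lay at the summit itself. In bins of 20 bp, RUNX matches averaged 6.92 per 100 broad DN-only regions within 20 bp of the summit. They averaged 2.08 in the bins from 180 to 240 bp on either side, a ratio of 3.33. The ratio was 3.49 for CAGCTG and 3.06 for CAGGTG. In narrow DN-only peaks the ratio for RUNX was 2.99, and in broad DN shared peaks it was 2.38.

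**Figure D3:**
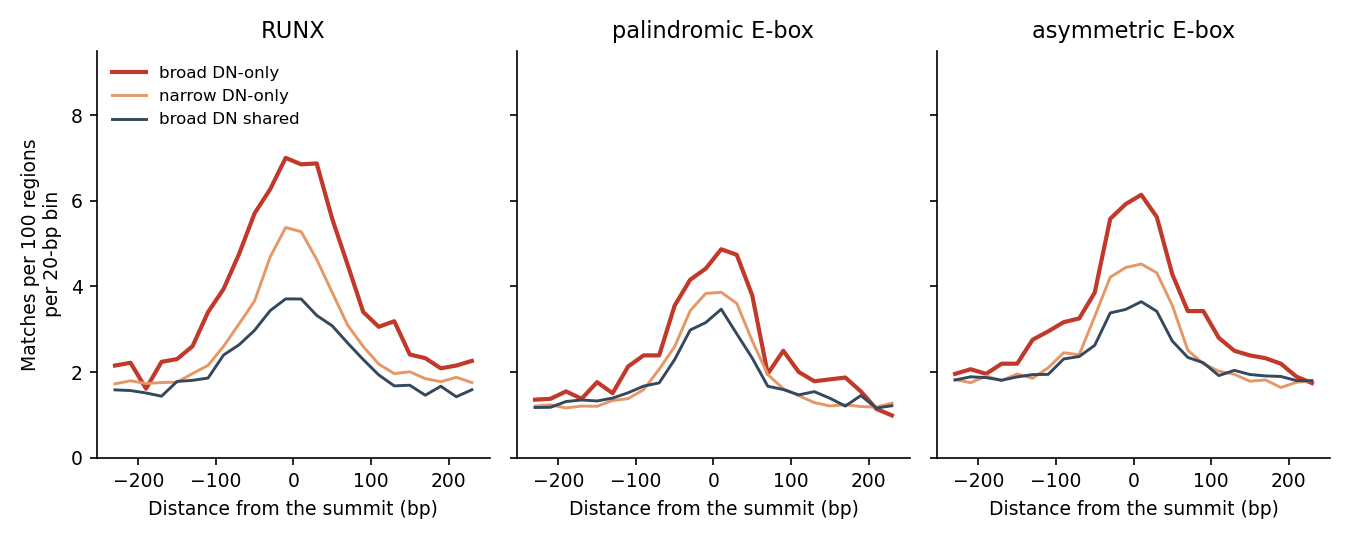
Matches per 100 regions in bins of 20 bp (vertical axis) by distance from the summit (horizontal axis, bp) for RUNX, the palindromic E-box (CAGCTG) and the asymmetric E-box (CAGGTG), with 1 line each for broad DN-only, narrow DN-only and broad DN shared peaks. The RUNX line of the broad DN-only regions averages 6.92 within 20 bp of the summit and 2.08 from 180 to 240 bp on either side.

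Height moved with these shares. From the lowest to the highest of the 4 ranges of fold enrichment, the share of broad DN-only windows with a RUNX match was 18.7%, 26.3%, 28.8% and 36.1%. In the narrow DN-only peaks of the same ranges of fold enrichment it was 18.8%, 27.2%, 33.6% and 37.6%. The excess of broad over narrow DN-only windows, 6.70 points over all regions (5.37 to 8.07), was therefore not present at like height, where the differences were −0.15, −0.88, −4.81 and −1.55 points and the interval of 3 of these held 0. The excess over broad DN shared windows was present at like height, with differences of 10.0, 16.2, 14.9 and 18.1 points, and was 9.75 points (8.18 to 11.3) among summits beyond 1 kb of a TSS. For CAGCTG the difference from narrow DN-only windows also lay within its interval of 0 in all 4 ranges, and for CAGGTG in 3 of them. The split by height was made after the values were seen.

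**Figure D4:**
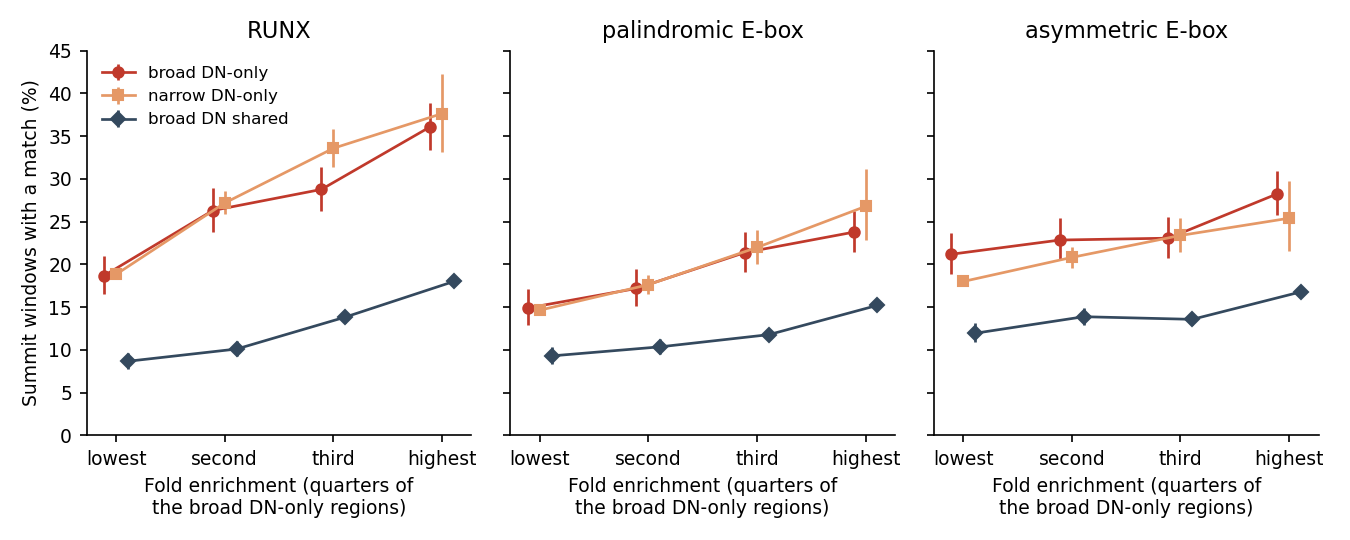
Share of summit windows with a match (vertical axis, %) in 4 ranges of fold enrichment (horizontal axis, split at the quartiles of the broad DN-only regions) for RUNX and both E-boxes, with points for the share and bars for 95% Wilson intervals. For RUNX, broad DN-only windows go from 18.7% to 36.1%, narrow DN-only windows from 18.8% to 37.6% and broad DN shared windows from 8.67% to 18%.

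RUNX and E-box matches met in the same window in 473 regions (10.2%), against 6.39% of narrow DN-only and 4.37% of broad DN shared windows. The product of both shares among broad DN-only windows is 10.8%, so the motifs did not co-occur beyond their own frequencies. Another 803 regions (17.3%) held RUNX alone, 1351 (29.1%) an E-box alone and 2016 (43.4%) neither. The windows at Runx1, Flt3, Ebf1, Cdh5 and Bpifb3 printed above are among the 473.

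The other stages had different sequence features in their own broad regions. The asymmetric E-box was less frequent in broad DN-only than in DP-only windows, with a difference of −8.93 points (−14.6 to −3.71), and the nuclear receptor sequence AGGTCA was in 3.23% of broad DN-only against 19.1% of DP-only windows. Both E-boxes were scarcer in the mature stages, CAGCTG in 4.31% of SP4-only and 1.85% of SP8-only windows. The TCF7/LEF1 sequence CTTTGA was in 5.56% of broad DN-only windows, below SP4-only (16.4%) and SP8-only windows (12.5%). The difference in RUNX from SP8-only windows was 5.34 points with an interval from −0.12 to 10.1, which holds 0. AGATAA, the GATA sequence, was in 4.24% of broad DN-only windows, above broad DN shared (difference 1.52 points, 0.95 to 2.16) and below SP4-only windows (difference −6.27 points, −9.09 to −3.95). The RBPJ sequence GTGGGAA, read by the DNA-binding partner of Notch, was in 4.31% of them, 2.11 points above broad DN shared (1.54 to 2.74) and 1.08 points above narrow DN-only windows (0.50 to 1.73). In the ranges of fold enrichment used above, the RBPJ difference from narrow DN-only windows was −0.50, 1.69, 0.72 and 0.92 points, and the interval held 0 in all but the second. The interval of the RBPJ difference from broad DN shared windows held 0 in the lowest range, and that of the GATA difference in the third and the highest.

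Broad DN-only regions lay near each other and near narrow DN-only peaks. Of the 9285 DN peaks next to a broad DN-only region along the chromosome, 708 (7.63%) were broad DN-only themselves, against 3.09% of the whole list, and the share was above that of the chromosome on 19 of 19 chromosomes. Narrow DN-only peaks made up 42.6% of these neighbours (23.8% of the list), and peaks shared by all 4 stages 26.4% (46.2% of the list). Next to narrow DN-only peaks 5.54% of the neighbours were broad DN-only, and next to broad DN shared peaks 1.86%. These shares are a description with no test, since each pair of adjacent members is counted from both sides.

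Most regions nevertheless stood apart. The median gap to the next broad DN-only region was 201882 bp, and 1070 of 4624 gaps (23.1%) were under 50 kb. When regions within 50 kb of the next were joined, 2833 stayed alone and 734 (15.8%) fell into 202 clusters of 3 or more, 27 of them with at least 5. Per chromosome, the share of DN peaks that were broad DN-only ran from 2.41% on chromosome 15 (153 of 6349) to 3.81% on chromosome 18 (179 of 4699).

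The clusters with most regions lay over genes of varied function. The first held 11 regions among 45 DN peaks in 163 kb (chr7:44534312-44697772), over Pold1, the liver X receptor gene Nr1h2, Napsa and the myosin gene Myh14, among others, and its first regions lay 2458 and 2760 bp upstream of Spib. Their fold enrichment ran from 4.04 to 18.9. The keratin genes Krt80 and Krt7 (chr15:101333757-101424871) held 9 regions among 24 DN peaks, with 3.06 to 20.9. Cds1 and Wdfy3 (chr5:101799532-101934957) also held 9, among 19 DN peaks, with 5.32 to 13.8. Frmd4a (chr2:4364491-4477243) held 7 among 20 DN peaks, and the stretch from Foxn4 to Ube3b with Myo1h and Kctd10 (chr5:114269696-114407622) held 7 among 28.

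By gene, 5693 of 20780 protein-coding genes (27.4%) had a broad DN-only region in the gene or within 50 kb. Of these, 4115 had 1, 1106 had 2 and 472 had 3 or more, and 697 regions (15%) were near no protein-coding gene, against 10.4% of all DN peaks. Gm20388, a gene model that spans 4435 kb over many other genes, had 20, which made up 1.98% of its 1012 DN peaks. Wdfy3, a gene of selective autophagy, had 10 among 29 DN peaks (34.5%), the synapsin gene Syn3 10 among 47, and the cell adhesion gene Dscaml1 10 among 53. Myh14 had 9 among 37, and Arnt2, Krt7, Krt80, Dscam, Agap1 and Frmd4a had 8 each. Cds1, Limch1, Myo1h and the teneurin gene Tenm4 had 7 each. None of these genes but Gm20388 had a broad DP-only, SP4-only or SP8-only region within 50 kb, and neither did 91.3% of all protein-coding genes. Several are long, such as Tenm4 (740 kb) and Frmd4a (596 kb), and Krt7 (19.3 kb) and Krt80 (22.7 kb) are short neighbours that share their regions.

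Regions near genes of blood progenitors and early T cells included known regulators. Of 16 progenitor genes 7 (43.8%) had a member within 50 kb, beside 27.4% of all genes. Meis1, a homeodomain factor of stem cells, had 5, of which 3 were in its introns with fold enrichments of 25.9, 15.7 and 12.4. Hhex, a homeodomain factor of progenitors, had 3, with 8.71, 5.64 and 4.00. Spi1 had 2, the region 32402 bp upstream named above and another 48654 bp downstream, in an intron of Madd, both at a fold enrichment of 18.9. Gata2, a factor of stem and mast cells, had 2 with 5.58 and 6.36, which lay outside it, 22387 bp downstream and 47817 bp upstream. The cytokine receptor gene Flt3, the surface marker gene Cd34 and the factor gene Lyl1 had 1 each. That of Flt3, at 11.3, lay 9557 bp upstream and 126 bp from an annotated start site, which was not counted as one of Flt3. That of Cd34 lay in an intron at 3.11. Lmo2, Tal1, Mef2c, Bcl11a, Gfi1b, Hoxa9, Erg, Mycn and Kit had 0.

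Of 20 genes of early T cells 8 (40%) had a member in the gene or within 50 kb, beside 27.4% of all genes. The median gene length was 31.2 kb for this list and 23.2 kb for the progenitor list, against 17.6 kb for all protein-coding genes, and a longer gene has a wider window. Spib, an ETS factor gene related to Spi1, had 4, with fold enrichments from 5.88 to 7.61, and these belong to the cluster on chromosome 7. None lay inside Spib. Those nearest to it were in Pold1, and the others lay 39262 and 40314 bp upstream, at or near Napsa. Il2ra, which encodes CD25 and marks the middle of the DN stage, had 3, with 6.70, 4.89 and 3.37. The highest of them lay 21420 bp downstream, in an intron of Il15ra, and 110 bp from a later peak. Runx1 had 3, with 8.02, 5.98 and 4.02, and all of these held a RUNX match. Hes1 had 2, the region over its start site at 9.14 and one 18134 bp upstream at 6.09, whose summit window is all repeat sequence. The genes Cd3e, Ets2, Notch3 and Tcf12 had 1 each. Those with 0 included Ptcra, Rag1, Rag2, Notch1, Bcl11b, Tcf7 and Gata3.

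Of the 20 genes of DP and SP cells, 5 (25%) had a member, 1 each, beside 27.4% of all genes. Among these 5 were Ccr9, Satb1 and Runx3, with fold enrichments of 5.24, 3.85 and 3.48. Cd4, Cd8a, Cd8b1 and Zbtb7b had 0. Read per DN peak, members were 5 of the 519 DN peaks near these genes (0.963%, 95% interval 0.412 to 2.24%), under the 3.09% of the whole list. For the progenitor genes the share was 15 of 408 (3.68%, 2.24 to 5.98%) and for the early T genes 16 of 733 (2.18%, 1.35 to 3.52%), and both intervals hold 3.09%. Among DN peaks of at least 300 bp alone, a denominator chosen after the data were seen, the shares were 2.38% near DP and SP genes (1.02 to 5.45%), 11.5% near progenitor genes (7.06 to 18%) and 6.56% near early T genes (4.08 to 10.4%), beside 8.90% of all.

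Genes of other lineages carried members too, and the share of all genes with a member was 27.4%. Counts of genes with a member were 5 of 14 for gamma delta T cells, 2 of 12 for natural killer and innate lymphoid cells, 4 of 12 for B cells, 7 of 14 for myeloid cells, 5 of 10 for dendritic cells, 5 of 10 for erythroid cells and megakaryocytes and 3 of 9 for mast cells. For tissues outside the blood they were 4 of 10 for thymic epithelium, 3 of 10 for fibroblasts, 6 of 10 for endothelium, 3 of 10 for neurons, 4 of 10 for cardiomyocytes, 2 of 10 for spermatocytes and 0 of 10 for hepatocytes. Per DN peak, the interval held 3.09% for each of these 14 lists, the lowest share being 0 of 77 near hepatocyte genes and the highest 12 of 230 near endothelial genes (5.22%, 3.01 to 8.90%). With DN peaks of at least 300 bp as denominator, the endothelial share was 12 of 76 (15.8%, 9.27 to 25.6%), above the 8.90% of all. The intervals are not adjusted for the 17 lists.

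**Figure D5:**
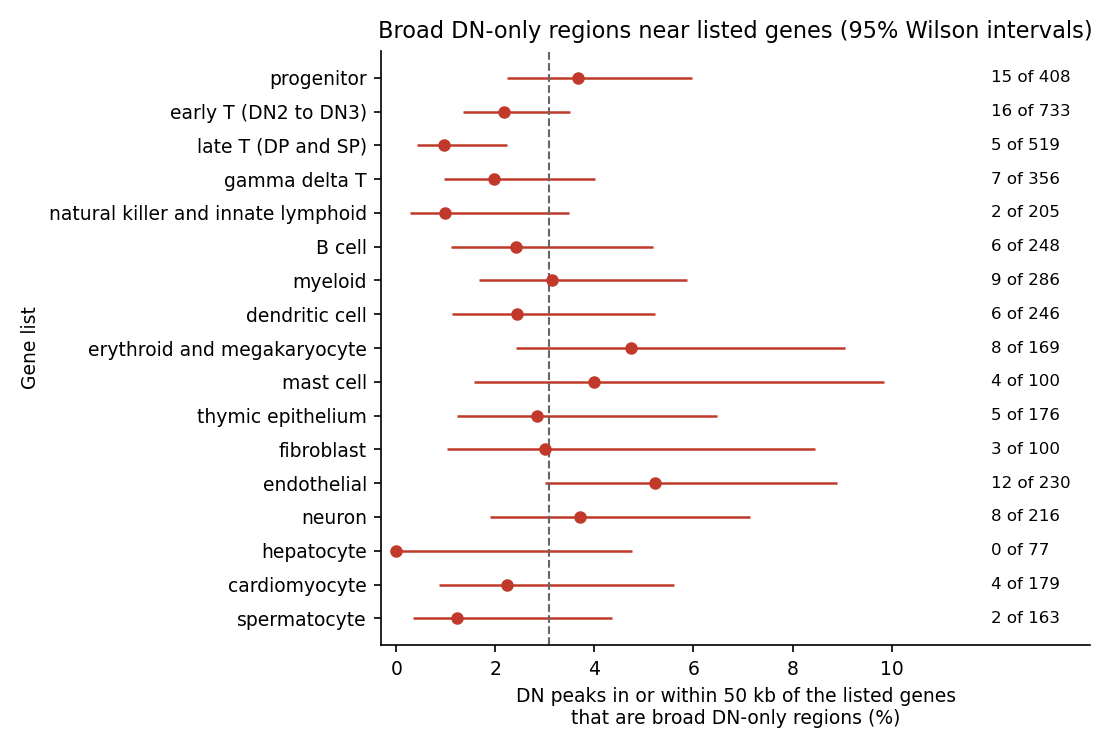
Share of the DN peaks in or within 50 kb of the listed genes that were broad DN-only regions (horizontal axis, %) for 17 gene lists (vertical axis), with points for the share, bars for 95% Wilson intervals, counts at the right and a dashed line at the 3.09% of all DN peaks. The list of DP and SP genes, 5 of 519, has its whole interval below the line, and the other 16 intervals hold it.

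The highest members near genes of those lineages were in or near endothelial and dendritic cell genes. Cdh5, the VE-cadherin gene of endothelium, had 4, with fold enrichments of 19.4, 13.7, 6.21 and 4.89, and Kdr, a receptor for vascular endothelial growth factor, had 1 in an intron at 21.7. Egfl7 had 3, from 2.77 to 8.81, and those at 2.77 and 8.81 lay in Gm20532. Cldn5 had 2, the higher at 18.6, 10541 bp downstream in an intron of Cdc45. Pf4, a platelet chemokine gene, had 4 from 5.48 to 13.8. That at 6.65 lay 483 bp upstream of Pf4, while for those at 5.48, 5.99 and 13.8 the nearest gene was Cxcl3 or Cxcl5. Ebf1, a B cell factor gene, had 3 inside the gene at 7.74, 7.10 and 7.10, and the B cell gene Pax5 had 1 in an intron at 16.9. Siglech, a gene of plasmacytoid dendritic cells, had 1 at 26.7, and Cebpa, a myeloid factor gene, had 1 at 15.8, 49093 bp upstream. Cd163l1, a gene of gamma delta T cells, had 3 from 8.43 to 13.5, of which that at 9.89 lay inside it. Those at 8.43 and 13.5 lay in 5830411N06Rik, 22780 and 49036 bp downstream of Cd163l1. The others of that list, Etv5, Il1r1, Tbx21 and Zbtb16, had 1 each inside the gene, from 5.30 to 14.5. Rbfox3, a neuronal splicing factor gene, had 3 from 4.07 to 7.14.

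The markers were also read for the DN label itself. A DN peak lay over a start site of 19 of 20 early T genes, with Notch3 the exception, and of 19 of 20 DP and SP genes, with Zbtb7b the exception. For all protein-coding genes the share was 63.2%. It was 12 of 16 for progenitor genes, 5 of 12 for B cells, 5 of 14 for myeloid cells, 6 of 10 for dendritic cells, 7 of 12 for natural killer and innate lymphoid cells and 11 of 14 for gamma delta T cells. It was 5 of 10 for thymic epithelium, 6 of 10 each for fibroblasts and neurons, 3 of 10 for erythroid cells and megakaryocytes, 1 of 9 for mast cells and 4 of 10 for endothelium, where Cdh5 had no DN peak at its start site. It was 1 of 10 each for hepatocytes, cardiomyocytes and spermatocytes. The part of any such cells in the broad DN-only regions was not tested.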

How the data were processed

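ATAC-seq peaks of sorted thymocytes were analysed as 4 lists, 1 per stage. The authors aligned reads to mm10 with BWA, brought the libraries to a median depth, pooled the 4 mice of a stage and called peaks with MACS2 at a 5% false discovery rate. Each deposited peak carries its interval, its summit, a fold enrichment (a ratio of pile-up over local background) and a −log10 q-value. Read totals of the libraries were not used here, and the lists give no spread between mice. Peaks lie on 19 chromosomes.

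Peaks were compared by an overlap of at least 1 bp. TSSs (183083 positions of 249203 transcripts) and 20780 protein-coding genes came from GENCODE M21 and RefSeq, so antisense and noncoding start sites count, and a gene was near a peak in its body or within 50 kb. The distance to a TSS was compared by a two-sided Kolmogorov-Smirnov test with Bonferroni correction. Shares carry 95% Wilson intervals and their differences Newcombe intervals, for counting error only. Motifs were searched on both strands from 50 bp before to 50 bp after the summit. They were TGTGGT (RUNX), CAGCTG (palindromic E-box), CAGGTG (asymmetric E-box), AGGAAG (ETS), GAGGAAGT (PU.1), AGATAA (factors of the GATA family), CTTTGA (TCF7/LEF1), GTGGGAA (RBPJ), AGGTCA (nuclear receptors), GGGCGG (KLF/SP), GTGGGCG (EGR), CAACTG (MYB), TGANTCA (AP-1), TTGCNNAA (C/EBP), TTGGCA (NFI), TGACAG (MEIS), ACAAAG (SOX), GGAATG (TEAD), TGTTTAC (FOX), AACNNGTT (GRHL), CCCNNGGGA (EBF), TTCNNNGAA (STAT), GAAANNGAA (IRF), TAATTA (homeodomain), TGGAAA (NFAT) and the CTCF motif. Every PU.1 match is also an ETS match, and KLF/SP and EGR matches can overlap.

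Regions named in the text were the 12 with the highest q-value, the 5 widest, the 10 with the highest q-value over a protein-coding TSS and those near listed genes. A few items are not reported here. The definition of the regions, the gene lists and the motifs were chosen with earlier results of these data known. Python 3.11.15, numpy 2.4.6, pandas 2.3.3, scipy 1.17.1 and matplotlib 3.10.9 were used, and the calculations were tested on simulated data.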

Additional observations from a re-analysis of the deposited data

How the results depend on the processing

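The number of broad DN-only regions was 7365 at a minimum width of 250 bp and 1850 at 400 bp. The share at promoters was 9.33% and 14.5% at these widths, 7.56% with protein-coding TSSs alone, 15.3% with promoters of 1000 bp and 4.80% by the summit. The median TSS distance was 19131 bp with protein-coding TSSs. The Kolmogorov-Smirnov test against DP-only regions missed the threshold at 400 bp (statistic 0.166, p = 0.136, n = 79) and with lists of equal length (0.0387, p = 1, n = 529), and against SP8-only regions at 400 bp (0.151, p = 0.386, n = 72), where fewer regions were compared. With protein-coding TSSs the order against SP8-only regions was reversed (0.113, p = 0.013, n = 271). With all TSSs, the order against narrow DN-only peaks was reversed within each of the 4 ranges of fold enrichment (0.100, 0.106, 0.0711 and 0.0438). The cause was not tested. In these ranges, added after the data were seen, the differences from narrow DN-only windows below 0 were −0.15, −0.88, −4.81 and −1.55 points for RUNX, −0.44, −0.59 and −3.02 for CAGCTG and −0.32 for CAGGTG. For RUNX and both E-boxes, all 15 differences from broad DN shared windows, within the 4 ranges and beyond 1 kb of a TSS, kept their direction. No paired analysis was possible because each list pools the mice of a stage, and for the same reason no mouse could be left out.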

Other observations

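Broad DN-only windows differed from other DN peaks in base composition. The median GC content was 53.5%, against 55.4% in broad DN shared and 52.5% in narrow DN-only windows. The ratio of observed to expected CpG, pooled over all windows of a set, was 0.303, below broad DN shared (0.471) and above narrow DN-only windows (0.254). At least 50% of the window was repeat sequence in 196 regions (4.22%), against 7.07% of narrow DN-only, 2.58% of broad DN shared and 11.7% of broad DP-only windows.

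Among the motifs not described above, the KLF/SP sequence GGGCGG was in 4.14% of broad DN-only windows, with a difference from broad DN shared windows of −7.17 points (−7.80 to −6.49). The ETS sequence AGGAAG was in 23.6%, below the 26.2% of all DN windows, and GAGGAAGT, the PU.1 sequence, in 2.50% beside 2.88%. For ETS the difference from broad DN shared windows was −3.00 points (−4.28 to −1.69), and −7.49 points (−8.99 to −5.93) beyond 1 kb of a TSS. In each of the 4 ranges of fold enrichment its interval held 0. Against narrow DN-only windows the ETS difference was −1.24 points (−2.52 to 0.08) over all regions. It was −4.05, −6.21, −4.65 and −1.16 points in the ranges, and only the last interval held 0. The CTCF sequence was in 8 regions (0.172%), against 1.49% of all DN windows. No match to any of the 26 motifs was found in 679 windows (14.6%), against 17.8% of narrow DN-only and 20.4% of broad DN shared windows.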
